A study of Mus musculus with 18 samples.

Results

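A-485, an inhibitor of the acetyltransferase domain of P300/CBP, was compared with its absence in IFNγ-treated AT3 cells, a mouse mammary carcinoma cell line used as a model of triple-negative breast cancer. The comparison takes 6 of the 18 libraries of the study, namely the 3 libraries labelled A485+IFNy and the 3 labelled IFNy, and it was made over 11964 tested genes of 43629 in the count table. The A485+IFNy cells were given A-485 for 1 h and then IFNγ (1 ng/mL) for a further 2 h. The IFNy cells were given DMSO for 1 h and then the same IFNγ, so both groups carry the cytokine and differ in the inhibitor. The steady-state groups labelled DMSO and A485 were treated for the same 3 h without IFNγ. The remaining groups, A241 and A241+IFNy, held A-241, a chemically distinct catalytic inhibitor of P300/CBP. The labels give 1000 nM as the dose of A-485 alone and 250 nM as that of A-241 alone, and the methods give the same doses for the combinations. The methods speak of technical triplicates and the labels of biological ones, so p values measure the spread between libraries, which may be technical.

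P300 and CBP are paralogous lysine acetyltransferases. They are brought to enhancers and promoters by transcription factors, where they acetylate histone tails and the factors themselves, and catalytic inhibitors such as A-485 compete with acetyl-CoA. IFNγ acts through its receptor, the JAK kinases and STAT transcription factors, which bind GAS elements (letters TTCNNNGAA) and switch on IRF1. IRF1 in turn binds interferon-stimulated response elements, or ISREs, whose core repeats GAAA. P300 and CBP also act at enhancers outside the interferon response, and genes not called with IFNγ are described here beside the IFNγ-induced ones.

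The sequences below are upstream of some of the genes whose levels are given in the results. Each is 250 bases that end just before the RefSeq start of the gene (GRCm38.p6), read 5′ to 3′ on the strand of the gene. Capitals mark matches to the GAS letters TTCNNNGAA or to the ISRE core letters GAAANNGAA on either strand (reverse complement TTCNNTTTC), which may overlap. Igtp (chr11:58199306-58199555, plus strand), Gm12250 (chr11:58183593-58183842, plus), Gbp3 (chr3:142559794-142560043, plus), Gbp7 (chr3:142530086-142530335, plus) and Cd274 (chr19:29367188-29367437, plus) are IFNγ-induced genes that were lower with A-485. Tle3 (chr9:61372116-61372365, plus) was lower with A-485, was not called with IFNγ, and has no match.
Igtp: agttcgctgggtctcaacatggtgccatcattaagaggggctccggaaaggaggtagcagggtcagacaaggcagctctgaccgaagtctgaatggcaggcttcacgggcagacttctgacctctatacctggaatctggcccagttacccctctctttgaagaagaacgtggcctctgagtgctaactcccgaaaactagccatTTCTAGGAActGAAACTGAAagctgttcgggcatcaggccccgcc
Gm12250: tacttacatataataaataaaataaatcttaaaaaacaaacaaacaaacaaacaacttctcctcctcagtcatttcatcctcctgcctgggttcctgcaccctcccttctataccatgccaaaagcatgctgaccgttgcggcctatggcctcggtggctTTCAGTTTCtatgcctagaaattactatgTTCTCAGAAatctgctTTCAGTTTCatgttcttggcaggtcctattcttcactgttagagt
Gbp3: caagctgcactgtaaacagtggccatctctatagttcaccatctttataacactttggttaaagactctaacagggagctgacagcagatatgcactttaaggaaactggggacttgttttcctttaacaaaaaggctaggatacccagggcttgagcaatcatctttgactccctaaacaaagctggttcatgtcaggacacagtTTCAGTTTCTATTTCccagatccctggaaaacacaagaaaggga
Gbp7: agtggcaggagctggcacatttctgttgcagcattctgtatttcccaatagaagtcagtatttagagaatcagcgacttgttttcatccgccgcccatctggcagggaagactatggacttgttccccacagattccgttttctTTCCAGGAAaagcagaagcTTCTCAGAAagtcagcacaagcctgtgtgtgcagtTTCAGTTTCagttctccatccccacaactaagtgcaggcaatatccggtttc
Cd274: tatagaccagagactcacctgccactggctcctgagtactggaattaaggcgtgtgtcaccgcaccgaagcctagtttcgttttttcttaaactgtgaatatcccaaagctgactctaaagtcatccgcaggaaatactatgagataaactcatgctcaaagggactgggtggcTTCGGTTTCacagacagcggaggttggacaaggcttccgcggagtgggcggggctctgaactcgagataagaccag
Tle3: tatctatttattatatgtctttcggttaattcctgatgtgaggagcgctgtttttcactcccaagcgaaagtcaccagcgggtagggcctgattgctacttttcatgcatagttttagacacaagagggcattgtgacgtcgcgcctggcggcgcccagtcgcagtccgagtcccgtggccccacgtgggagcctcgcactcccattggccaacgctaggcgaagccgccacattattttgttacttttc

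Among all 27025 RefSeq promoters of 300 bases, 8.47% held the GAS letters, 8.57% the ISRE core and 15.9% one or the other. Of the 14 IFNγ-induced genes that were lower with A-485, 7 had a promoter in the table, and 5 of these held one or the other. The 5 IFNγ-induced genes shown above are these 5, and those without a match are not shown, so the sequences do not stand for the set. Of all 137 IFNγ-induced genes, lowered or not, 106 had a promoter, and 56 of these held one or the other. Of the 46 lowered genes not called with IFNγ, 30 had a promoter, with 0 holding GAS letters and 2 the ISRE core. Under 80% of each of these sets has a promoter, so no share of a set can be read from these counts. A match is a run of letters and not a measured site.

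Between 3417167 and 7856830 counts were obtained per library of the study, and the 6 libraries compared had 4251408 to 7856830. Levels are in CPM, counts relative to the TMM-scaled library size. Here 3 counts, the limit that a count of 0 allows, are 0.369 to 0.894 CPM, and such limits cover counting error only. IFNγ replicate 2 stood apart from the other IFNγ libraries, as did DMSO replicate 3 in its group. Gm42418, a transcript at the ribosomal RNA locus, took 23% of the counts in IFNγ replicate 2, 8.24% and 11.2% in the other IFNγ libraries and 7.38% to 9.45% with A-485 + IFNγ. Epithelial markers fitted the label, with 12 of 14 over 3 counts in at least 1 library, although Krt19 was at 0 in all 6. All 12 mesenchymal markers were over 3 counts in at least 1 library too. Their summed level was 1160 to 1530 CPM with IFNγ and 1410 to 1490 CPM with A-485 + IFNγ, and that of epithelial markers was 1560 to 1780 and 1220 to 1390 CPM, ranges that do not overlap. Such sums are weighted to abundant members. Krt14 lay lower in every A-485 + IFNγ library than in any IFNγ library, while the levels of Cdh1 overlap between both groups. Leukocyte markers summed to 5.77 to 36.3 and 4.18 to 20.7 CPM, with 4 of 13 at 0 (Adgre1, Cd4, Itgax, Ncr1), and endothelial markers to 1.72 to 2.8 and 0.95 to 2.24 CPM, with Cdh5, Tek and Vwf at 0. Any part of these in the results was not tested. In bulk libraries, fewer cells of a kind and less RNA per cell cannot be told apart.

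A-485 lowered genes far more often than it raised them in IFNγ-treated cells. At an adjusted p under 0.01 (edgeR quasi-likelihood test, Benjamini-Hochberg over all genes), 64 genes were lower, which is 0.535% of those tested, and 2 were higher, which is 0.0167%. The spread was estimated over all 18 libraries, and a fit of only the groups compared called 0 lower and 0 higher genes (edgeR, 800 lower and 348 higher at an unadjusted p under 0.05). With the replicate number as a block, 29 lower and 0 higher genes were called. The lowered genes spanned transcription factors, Notch, Wnt and TGF-β signalling genes, ion channels and the cell cycle gene Ccnd1, as well as IFNγ-induced genes such as Gbp3, Igtp and Cd274. Their median log2 fold change was -1.60, and the median level left was 32.9% of that with IFNγ alone. Across all genes tested the median was -0.03, and 53.1% lay below 0, with 90% of genes between -1.11 and 0.60. At an unadjusted p under 0.05 there were 1116 lower and 644 higher genes. With libraries scaled by total counts in place of TMM factors these were 786 and 1002, 42.8% of all genes lay below 0, and 33 lower and 2 higher genes were called. In all 64 genes the A-485 + IFNγ libraries lay below every IFNγ library, a separation in that direction that was seen in 1198 of the 11964 genes.

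**Figure D1:**
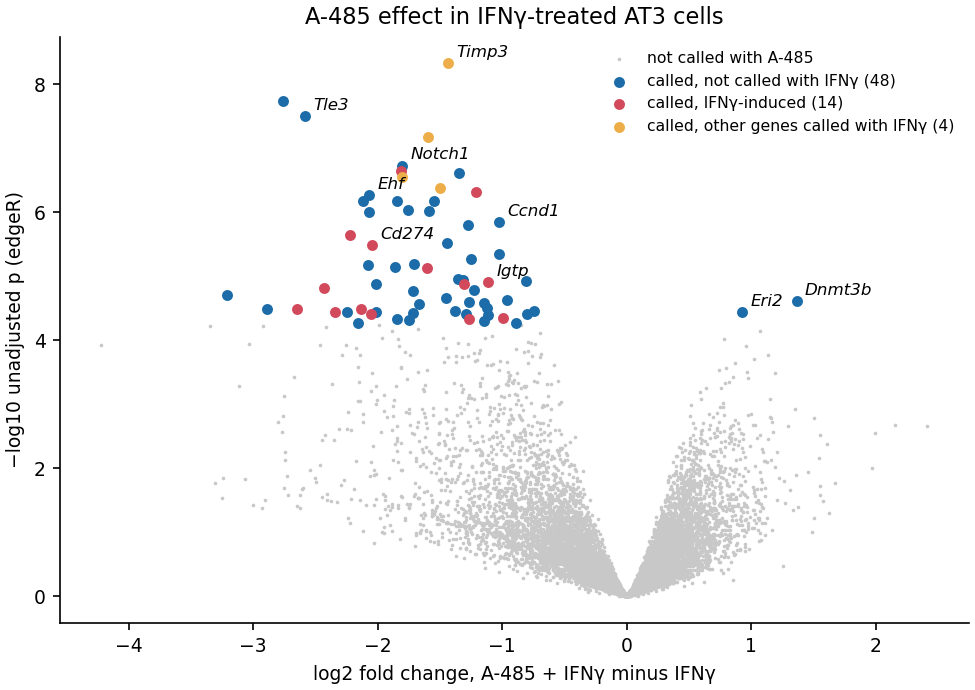
Each point is 1 of 11964 genes, with the log2 fold change of A-485 + IFNγ over IFNγ on the x axis and the −log10 of the unadjusted p on the y axis. Coloured points are the 66 genes called at an adjusted p under 0.01, of which 64 are on the left, and their colour gives the response to IFNγ alone.

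Most of the lowered genes were not called with IFNγ alone. Classed by IFNγ against DMSO, 46 of the 64 were not called with IFNγ, 14 were IFNγ-induced (called higher with IFNγ by more than 1 on the log2 scale), 3 were lowered by IFNγ, and Csf1 was raised by less than that limit. Of all genes tested, 1.15% were IFNγ-induced and 0.1% were lowered by it. Of the 137 IFNγ-induced genes 10.2% were called lower with A-485, against 0.39% of the 11808 genes not called with IFNγ. A narrower class of 9776 genes, whose change with IFNγ was not called and lay within 0.5 of 0 on the log2 scale, still held 30 of the lowered genes (0.307%). This classing uses the IFNγ libraries that also enter the comparison with A-485, and it was therefore repeated with A-241 + IFNγ against A-241, which shares none of them. By that measure 62 of the 64 were outside the IFNγ-raised class. This class had only 23 of the 11964 genes tested, so nearly every gene lies outside it. A-241 itself lowered IFNγ-induced genes, such as Gbp3 (-2.92) and Cd274 (-3.01) in A-241 + IFNγ against IFNγ. Genes that A-241 holds down leave the class, so this count cannot show whether the 64 respond to IFNγ. Leaving out DMSO replicate 3 gave 103 lowered genes in place of 64, with 81 in place of 46 not called with IFNγ.

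Among the 46 genes not called with IFNγ, 10 encode DNA-binding transcription factors and 7 encode transcriptional or chromatin cofactors. Not called does not mean unchanged, since Ccnd1, 1 of the 46, was at -0.66 in IFNγ against DMSO (adjusted p = 0.0141, edgeR). Roles here and below were assigned after the values were seen. The share of each role among all genes tested was not counted, so no excess of a role can be read from these counts. The strongest of the cofactors by fold was Tle3, a Groucho-family corepressor. Tle3 was at 31.8, 44.7 and 30.1 CPM in the IFNγ libraries and 6.89, 4.28 and 6.46 CPM in the A-485 + IFNγ libraries. The groups do not overlap, and Tle3 fell by 2.58 on the log2 scale (standard error 0.26, adjusted p = 0.000125, edgeR), to 16.5% of its level with IFNγ. Ehf, an ETS factor of epithelial cells, was at 50.9, 76.6 and 49 CPM in the IFNγ libraries and 12.8, 15.9 and 13.1 CPM in the A-485 + IFNγ libraries and fell by 2.07 (standard error 0.26, adjusted p = 0.00057, edgeR). Vdr, the nuclear receptor for vitamin D, was at 109, 205 and 106 CPM in the IFNγ libraries and 37.5, 43.4 and 46.7 CPM in the A-485 + IFNγ libraries. IFNγ replicate 2 was the highest IFNγ library in 40 of the 64 lowered genes and the lowest in 19, against 5236 and 5497 of the 11964 genes tested. The highest IFNγ value of Vdr was that of replicate 2, and its change was -1.71 (standard error 0.28, adjusted p = 0.00544, edgeR) and -1.35 without that library. Cebpb, a bZIP factor of inflammatory and mammary gene programmes, was at 97.5, 54.8 and 83.4 CPM in the IFNγ libraries and 26.8, 24.8 and 29.3 CPM in the A-485 + IFNγ libraries and fell by 1.55 (standard error 0.20, adjusted p = 0.00057, edgeR). In Cebpb the lowest IFNγ value was the one from replicate 2, and it was still above all A-485 + IFNγ values.

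Tead4, a DNA-binding partner of YAP, had a larger fitted change of -2.89 (standard error 0.51, adjusted p = 0.00814, edgeR) on few reads, 41, 20 and 23 counts with IFNγ and 4, 2 and 4 counts with A-485 + IFNγ. Bcl11b, a zinc finger factor, was at 8.97, 6.26 and 12.2 CPM in the IFNγ libraries and 2.68, 0.815 and 2.28 CPM in the A-485 + IFNγ libraries, all low levels, and fell by 2.24 (standard error 0.40, adjusted p = 0.00814, edgeR). The other factors were Sox4 (-1.31), Ets1 (-1.36), Klf13 (-1.25), Runx1 (-1.15) and Trps1 (-0.75), the last being the smallest change of the 64. Cofactors besides Tle3 were Hr, a nuclear receptor corepressor (-2.15, and -1.21 and not called with 2 surrogate variables), Id4, an inhibitor of bHLH factors (-2.07), Tnrc18 (-1.71), Ankrd1 (-1.29), Irf2bp2 (-1.27) and Eya2 (-1.14). Id4 was at 32.6, 21.7 and 21.9 CPM in the IFNγ libraries and 5.55, 7.33 and 5.32 CPM in the A-485 + IFNγ libraries, so that no A-485 + IFNγ library came near the IFNγ values.

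Receptors, ligands and inhibitors of signalling pathways made up 9 of the 46, with log2 fold changes from -2.08 to -1.03. Notch1, the receptor of the Notch pathway, was at 33.2, 49.2 and 35.1 CPM in the IFNγ libraries and 10.7, 9.78 and 12.9 CPM in the A-485 + IFNγ libraries. It fell by 1.80 (standard error 0.21, adjusted p = 0.000417, edgeR), and the ranges were far apart. Lifr, the receptor subunit for leukaemia inhibitory factor, was at 12, 17.6 and 14.2 CPM in the IFNγ libraries and 3.83, 4.89 and 4.56 CPM in the A-485 + IFNγ libraries and fell by 1.7 (standard error 0.26, adjusted p = 0.00304, edgeR). Inhbb, a subunit of the TGF-β family ligands activin B and inhibin B, was at 14.6, 8.34 and 12.2 CPM in the IFNγ libraries and 3.25, 4.48 and 2.09 CPM in the A-485 + IFNγ libraries and fell by 1.86 (standard error 0.29, adjusted p = 0.00314, edgeR). The pathway inhibitors Smad7 (-1.45) and Pmepa1 (-1.03), which restrain TGF-β signals, were lower, as were Dact2 (-1.67), the Wnt receptor Fzd9 (-2.08), the protease-activated receptor F2rl1 (-1.84) and the adhesion receptor Adgrg1 (-1.12). Pmepa1 was the most abundant of these, at 519, 461 and 464 CPM in the IFNγ libraries and 224, 235 and 249 CPM in the A-485 + IFNγ libraries.

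Ccnd1, which encodes cyclin D1, had the highest level of the 46. It was at 701, 875 and 737 CPM in the IFNγ libraries and 373, 425 and 342 CPM in the A-485 + IFNγ libraries, and fell by 1.02 (standard error 0.14, adjusted p = 0.000946, edgeR), to 49.3% of the level with IFNγ. Thbs1, the matrix protein thrombospondin-1, was at 88.2, 89.1 and 68.9 CPM in the IFNγ libraries and 18.9, 18.3 and 19.6 CPM in the A-485 + IFNγ libraries and fell by 2.11 (standard error 0.27, adjusted p = 0.00057, edgeR). Genes of the cytoskeleton, small GTPase signalling and membrane shape were 6 of the 46 and lay between -2.01 (Ablim1) and -0.96 (Cavin2), with Dlc1, a GTPase-activating protein, at -1.59. The channel Trpv4 (-1.23), the gap junction gene Gja1 (-0.89) and the sulphate transporter Slc26a2 (-0.80) were lower too. The metabolic enzymes squalene epoxidase Sqle (-0.80) and choline dehydrogenase Chdh (-1.84) were lower as well. Depp1 had the largest fitted decrease of the 64 (-3.21, standard error 0.52, adjusted p = 0.00629, edgeR), but it had 67, 14 and 54 counts with IFNγ and 2, 6 and 4 with A-485 + IFNγ. Others were the cytoskeletal and membrane genes Cdc42ep1 (-1.75), Schip1 (-1.75) and Mtss1 (-1.44), and 1700017B05Rik (-2.02), Iffo2 (-1.38), Lhfpl2 (-1.34), Tbc1d4 (-1.27) and Pitpnc1 (-1.11).

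**Figure D2:**
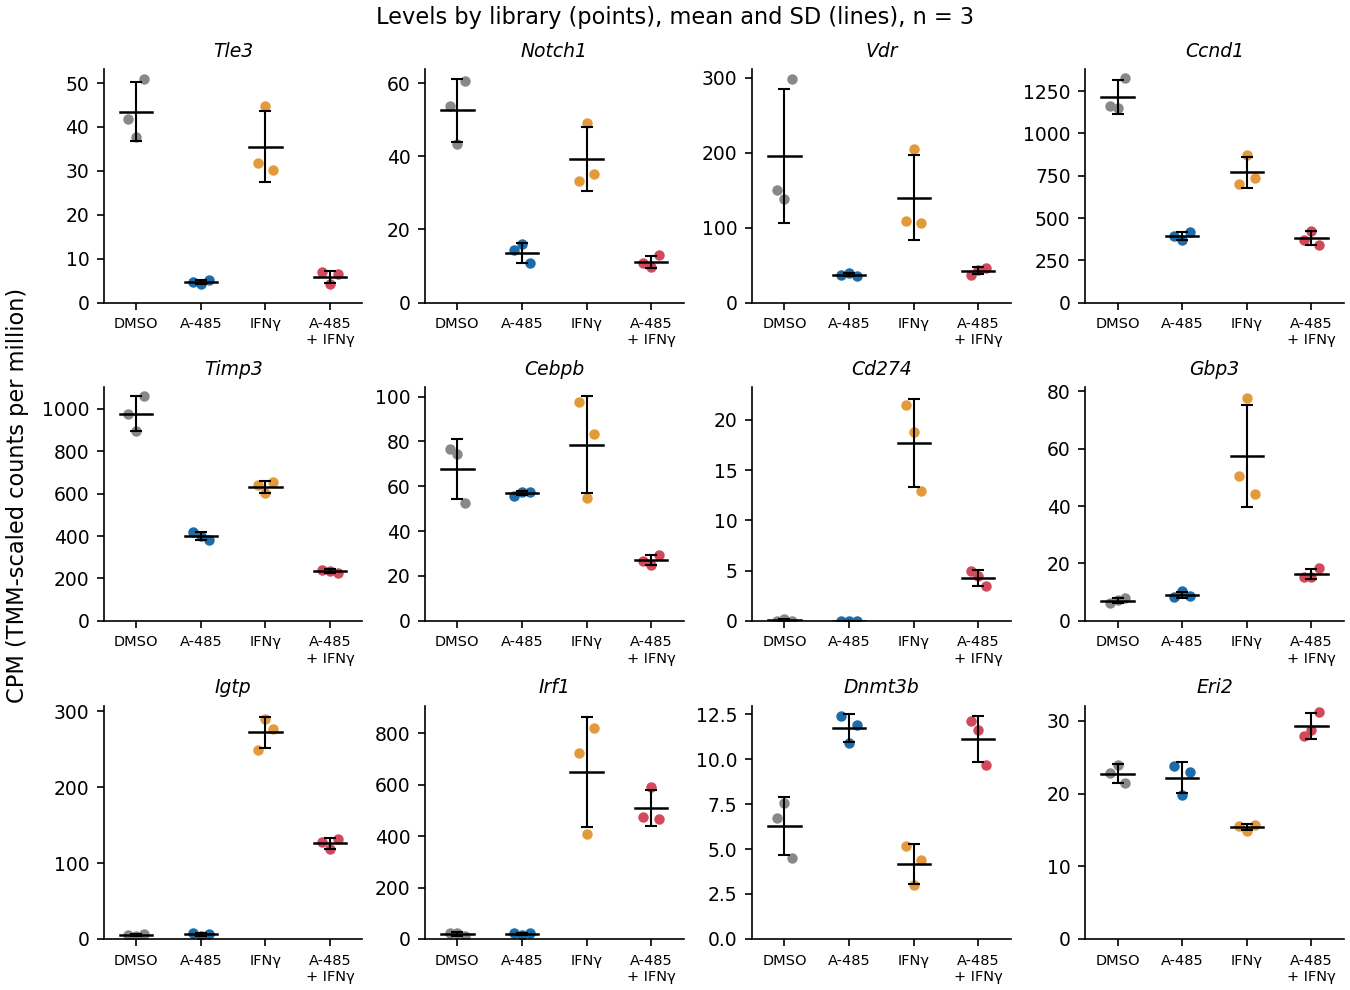
Levels of 12 genes in CPM (y axis, from 0) in each library of DMSO, A-485, IFNγ and A-485 + IFNγ, with points for libraries and lines for the mean and SD (n = 3). Tle3, Notch1, Vdr and Ccnd1 are low in both A-485 groups, Cd274, Gbp3 and Igtp are high only where IFNγ was given, and the Irf1 libraries of the 2 IFNγ-treated groups overlap.

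Trib2, Kcnn4 and Timp3 were lowered by IFNγ and were lower still when A-485 was added. Timp3, an inhibitor of matrix metalloproteinases, had the smallest adjusted p of the comparison. It was at 643, 602 and 654 CPM in the IFNγ libraries and 242, 237 and 225 CPM in the A-485 + IFNγ libraries, and at 977, 894 and 1060 CPM with DMSO. Timp3 fell by 1.43 under IFNγ (standard error 0.13, adjusted p = 5.68e-05, edgeR). Trib2, a pseudokinase gene, was at 70.1, 91.2 and 99.3 CPM in the IFNγ libraries and 23.9, 23.2 and 27.5 CPM in the A-485 + IFNγ libraries, against 276, 194 and 249 CPM with DMSO, and fell by 1.80 (standard error 0.21, adjusted p = 0.000421, edgeR). The potassium channel gene Kcnn4 was at 38.1, 35.2 and 38.1 CPM in the IFNγ libraries and 14.4, 12.6 and 9.88 CPM in the A-485 + IFNγ libraries and fell by 1.60 (standard error 0.17, adjusted p = 0.000199, edgeR).

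The 14 IFNγ-induced genes that were lower included the guanylate-binding protein genes Gbp3 and Gbp7, the immunity-related GTPase genes Igtp, Gm12250 and Gm4951, Gm43302, Cd274, Ifi204, Ly6a, Apol6, Sectm1b, Xdh and Tubb3. Gbp3 was at 50.5, 77.8 and 44.1 CPM in the IFNγ libraries and 15.1, 15.3 and 18.4 CPM in the A-485 + IFNγ libraries and fell by 1.81 (standard error 0.21, adjusted p = 0.000417, edgeR). Igtp, one of the most abundant, was at 249, 290 and 277 CPM in the IFNγ libraries and 128, 118 and 132 CPM in the A-485 + IFNγ libraries, with 5.06, 4.42 and 6.22 CPM with DMSO, and it fell by 1.11 (standard error 0.18, adjusted p = 0.00467, edgeR). All A-485 + IFNγ values of Igtp stayed far above the DMSO values. Cd274, which encodes PD-L1, was at 21.5, 18.8 and 12.9 CPM in the IFNγ libraries and 4.98, 4.48 and 3.42 CPM in the A-485 + IFNγ libraries and fell by 2.04 (standard error 0.28, adjusted p = 0.00178, edgeR). With 2 surrogate variables Cd274 was at -1.36 (adjusted p = 0.103, edgeR) and was no longer called, and it also lost the call when any of 4 of the 6 libraries was left out (adjusted p 0.002 to 0.0181 over the 6, edgeR). Gm12250 was at 45.6, 74.5 and 46.5 CPM in the IFNγ libraries and 8.42, 11.4 and 10.8 CPM in the A-485 + IFNγ libraries, with 0 counts in all DMSO libraries, and fell by 2.43 (standard error 0.38, adjusted p = 0.00516, edgeR). Apol6, an apolipoprotein L family gene, was at 34.2, 53.6 and 38.6 CPM in the IFNγ libraries and 9.38, 8.55 and 8.93 CPM in the A-485 + IFNγ libraries and fell by 2.22 (standard error 0.31, adjusted p = 0.00137, edgeR). Log2 fold changes of the other genes were -2.65 for Sectm1b, -2.34 for Tubb3, -2.13 for Gm4951, -2.05 for Gm43302, -1.60 for Xdh, -1.30 for Ly6a, -1.27 for Gbp7 and -0.99 for Ifi204, and in each the groups do not overlap. With 2 surrogate variables Tubb3 was at -1.51 (adjusted p = 0.0121, edgeR), which misses the threshold, and Gm4951 at -2.82. Of the 14, 9 were still called higher in A-485 + IFNγ than in A-485 alone, and of all 137 IFNγ-induced genes 73 were, where 0.744% of all genes tested were called higher. Copies within the guanylate-binding protein and immunity-related GTPase families resemble each other, so reads may be divided among them.

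The shift extended beyond the genes called, since 125 of the 137 IFNγ-induced genes had a negative fold change and their median was -0.78, beside -0.03 for all genes. These genes were chosen on IFNγ libraries that the fold change with A-485 also uses. In the 23 genes raised by IFNγ in the presence of A-241, a choice that uses none of the 6 libraries, the median was -0.66 and 20 lay below 0. Several well-known IFNγ targets missed the threshold. Irf1, which encodes the transcription factor IRF1, was at 721, 409 and 820 CPM in the IFNγ libraries and 474, 589 and 465 CPM in the A-485 + IFNγ libraries. The groups overlap, and the change was -0.35 (95% interval -0.91 to 0.20, adjusted p = 0.549, edgeR), or -0.61 without IFNγ replicate 2. Socs1, a feedback inhibitor of JAK kinases, was at 62.8, 1.19 and 56 CPM in the IFNγ libraries and 18.9, 26.7 and 15.2 CPM in the A-485 + IFNγ libraries. Its value in IFNγ replicate 2 lay under all others, the change was -1.01 (95% interval -2.47 to 0.46, adjusted p = 0.516, edgeR), and without that library it was -1.57 (adjusted p = 0.0254, edgeR). The peptide transporter gene Tap1 changed by -0.81 (95% interval -1.31 to -0.32, adjusted p = 0.0971, edgeR). For the chemokine genes the values were -1.31 for Cxcl9 (adjusted p = 0.0377, edgeR) and -0.66 for Cxcl10 (adjusted p = 0.356, edgeR). Without IFNγ replicate 2 Cxcl9 passed the threshold at -1.53 (adjusted p = 0.00396, edgeR). The MHC class I transactivator gene Nlrc5 (-1.50, adjusted p = 0.0773, edgeR) and Gbp2 (-0.80, adjusted p = 0.036, edgeR) did not pass either.

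At the threshold used, Dnmt3b and Eri2 rose. Dnmt3b, a de novo DNA methyltransferase gene, was at 5.16, 2.98 and 4.37 CPM in the IFNγ libraries and 12.1, 11.6 and 9.69 CPM in the A-485 + IFNγ libraries and rose by 1.37 (standard error 0.23, adjusted p = 0.00717, edgeR). Eri2, an exonuclease family gene, was at 15.5, 14.9 and 15.7 CPM in the IFNγ libraries and 27.9, 28.7 and 31.3 CPM in the A-485 + IFNγ libraries and rose by 0.93 (standard error 0.16, adjusted p = 0.00814, edgeR). In both genes all A-485 + IFNγ values exceeded all IFNγ values, yet each missed the threshold whichever 1 of the 6 libraries was left out. Some lowered genes, such as Gbp7 and Tead4, missed it in each of these fits too. At steady state, Dnmt3b was at 6.75, 7.58 and 4.49 CPM with DMSO and 12.4, 10.9 and 11.9 CPM with A-485. Eri2 was at 22.8, 24 and 21.4 and 23.8, 19.8 and 23 CPM there, so that its groups overlap at steady state. The targets of the inhibitor did not pass the threshold, with changes of 0.35 for Ep300 (95% interval 0.03 to 0.67, adjusted p = 0.294, edgeR) and 0.38 for Crebbp (95% interval 0.08 to 0.68, adjusted p = 0.221, edgeR). Hexim1, an inhibitor of P-TEFb, was at 29.1, 24.7 and 33.6 CPM in the IFNγ libraries and 30.4, 32.4 and 29.8 CPM in the A-485 + IFNγ libraries (change 0.08, 95% interval -0.21 to 0.37, adjusted p = 0.823, edgeR). At steady state Hexim1 was at 21.1, 22.3 and 22.1 CPM with DMSO and 38.7, 40.1 and 38.1 CPM with A-485, and rose by 0.84 (standard error 0.14, adjusted p = 0.00406, edgeR). The difference between both changes of Hexim1 was -0.76 (95% interval -1.17 to -0.34, adjusted p = 0.477, edgeR).

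Steady-state cells give the same comparison in 6 other libraries, A-485 against DMSO, where 0.619% of all genes (74) were lower. Cd274, Gm4951 and Sectm1b had at most 3 counts in every DMSO and A-485 library, so no fold is given for them there. Of the other 61 genes, 53 were below 0 and 29 were called lower. There were 49 lower ones at an unadjusted p under 0.05, while Gm12250, with 0 counts in all DMSO libraries, met that limit in the higher direction. Of the 46 genes not called with IFNγ, 45 were below 0 at steady state and 26 were called, with a median of -1.25 beside -1.57 under IFNγ. All of Trib2, Kcnn4 and Timp3 were called. Of the 11 IFNγ-induced genes with more counts, 4 were below 0 and 0 were called (edgeR, with 3 lower at an unadjusted p under 0.05). The IFNγ classes were set with the same DMSO libraries that this comparison uses, which can shift the steady-state figures of each class. Over all 11964 genes the log2 fold changes with and without IFNγ had a Pearson r of 0.481, given as a description since genes within a library are not independent.

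Tle3 was at 41.9, 37.7 and 50.8 CPM with DMSO and at 4.59, 4.2 and 5.11 CPM with A-485, and fell by 3.22 (standard error 0.27, adjusted p = 1.85e-05, edgeR). Notch1 went from 53.8, 43.3 and 60.5 CPM to 14.3, 16 and 10.7 CPM, and fell by 1.93 (standard error 0.21, adjusted p = 0.000115, edgeR). Ccnd1 went from 1160, 1150 and 1330 CPM to 392, 372 and 417 CPM, and fell by 1.62 (standard error 0.14, adjusted p = 1.85e-05, edgeR). In these genes the A-485 libraries lay below every DMSO library, as they did in 48 of the 64 and in 1058 of the 11964 genes tested. Ehf (-2.44), Vdr (-2.38), Inhbb (-2.50) and Lifr (-2.55) were called as well. Cebpb, by contrast, was at 76.5, 74.4 and 52.5 CPM with DMSO and 55.8, 57.4 and 57.4 CPM with A-485. Its groups overlap at steady state, and the change was -0.26 (standard error 0.19, adjusted p = 0.62, edgeR).

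Ankrd1, a cofactor gene widely used as a readout of YAP and TEAD activity, was the 1 gene of the 46 that did not lie below 0 at steady state, at 61.1, 103 and 75 CPM with DMSO and 97.6, 97.9 and 63.7 CPM with A-485. Its steady-state change was 0.12 (standard error 0.23, adjusted p = 0.845, edgeR), while under IFNγ it was at 114, 70.9 and 78.2 CPM in the IFNγ libraries and 39, 33.8 and 35 CPM in the A-485 + IFNγ libraries and fell by 1.29 (standard error 0.23, adjusted p = 0.00814, edgeR). The sequence before its start (chr19:36119845-36120094, minus strand) has the TEAD letters GGAATG, or their reverse complement CATTCC, at the capitals, as do 14.6% of all RefSeq promoters.
Ankrd1: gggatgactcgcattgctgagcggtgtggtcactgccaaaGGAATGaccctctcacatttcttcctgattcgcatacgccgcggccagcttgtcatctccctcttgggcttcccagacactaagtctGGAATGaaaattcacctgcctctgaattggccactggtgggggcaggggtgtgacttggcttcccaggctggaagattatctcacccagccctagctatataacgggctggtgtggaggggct

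**Figure D3:**
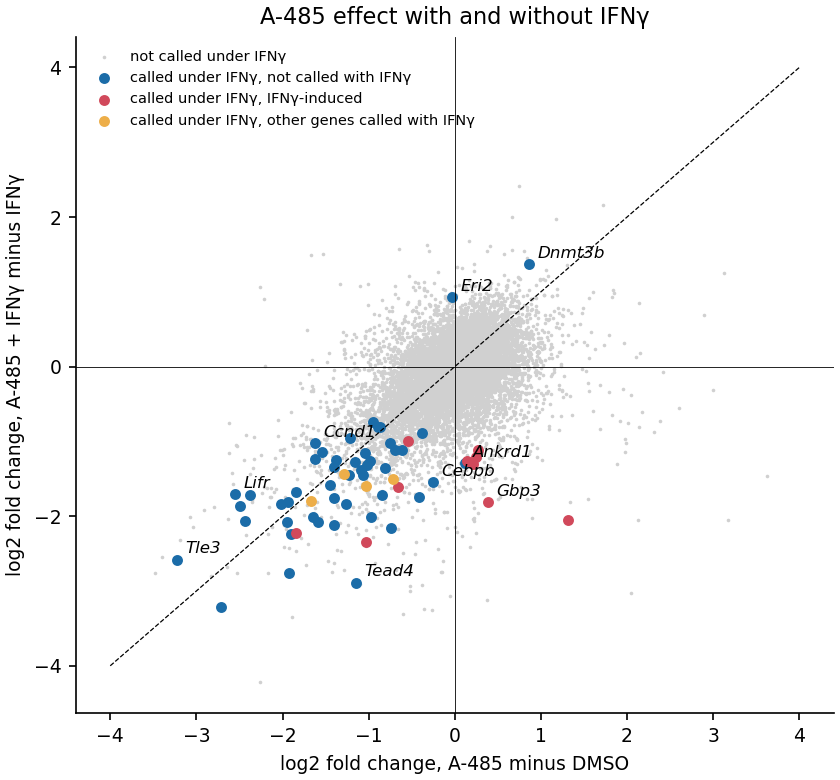
Log2 fold change with A-485 at steady state (x axis) and under IFNγ (y axis) for each gene, with the dashed line where both are equal. Genes called under IFNγ and not called with IFNγ (blue) lie mostly along the line at the lower left, and IFNγ-induced genes (red) lie mostly below it near or right of 0; 4 genes with at most 3 counts in every DMSO library are not drawn.

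The difference between both effects was tested directly as an interaction. No gene passed an adjusted p under 0.01 (0 of 11964, or 0%, with edgeR and also with limma-voom, 10 with DESeq2), and 499 had an unadjusted p under 0.05. The smallest adjusted p was 0.0257 (edgeR), and Gbp3 had this value with a difference of -2.19 (95% interval -2.86 to -1.53). Cebpb differed by -1.29 (95% interval -1.87 to -0.71, adjusted p = 0.218, edgeR), Ankrd1 by -1.41 (95% interval -2.09 to -0.73, adjusted p = 0.326, edgeR) and Igtp by -1.38 (95% interval -1.98 to -0.78, adjusted p = 0.218, edgeR). For Notch1 the difference was 0.13 (95% interval -0.48 to 0.74) and for Timp3 -0.15 (95% interval -0.52 to 0.22), so a difference of a whole log2 unit lies outside either interval.

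Gene lists of pathways were read by their counts and medians, beside a median of -0.03 over all genes. Of all genes tested, 0.535% were called lower and 53.1% lay below 0, or 42.8% below 0 with libraries scaled by total counts. Interferon lists were lowest where they held GTPases. All 10 immunity-related GTPase genes lay below 0, with 3 called and a median of -1.64, and all 5 guanylate-binding protein genes tested (of 11 listed) did, with 2 called and a median of -1.81. Of 10 genes for the IFNγ receptor, JAKs and STATs, 8 were below 0 (median -0.40), and of 7 checkpoint ligand genes Cd274 was called (median -0.43). None was called among 6 chemokine genes (median -0.98), 18 antigen processing and MHC class I genes (-0.43), 6 PARP and Dtx3l genes (-0.37), 7 interferon regulatory factor genes (-0.35), 17 antiviral genes (-0.26) and 9 SOCS and other feedback genes (-0.13). All 10 of these lists had a positive median response to IFNγ, and 0 of their members were called lower with A-485 at steady state. Of all genes tested 0.619% were called lower there. Some members had almost no counts with DMSO, such as Cxcl9 (2, 0 and 0) and Socs1 (2, 4 and 0), so a decrease could not be seen in those.

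Among lists outside the interferon response, the Notch and corepressor list had the lowest median (-1.22, 10 of 11 below 0), with Tle3 and Notch1 called. The shares over all genes were 0.535% called lower and 53.1% below 0. All 14 BMP and TGF-β target genes lay below 0 (median -0.78), with Id4, Pmepa1 and Smad7 called. All 15 developmental transcription factor genes did as well (median -0.85), with Runx1 and Sox4 called, as did all 12 YAP and TEAD targets (median -0.54), with Ankrd1 called. The cholesterol and fatty acid synthesis list had all 19 members below 0 and a median of -0.74, yet Sqle alone was called. Each of 3 more lists had a single member called lower, Klf13 of 10 Krueppel-like factors (median -0.44), Thbs1 of 17 collagen, integrin and matrix genes (-0.24) and Csf1 of 14 NF-κB genes (-0.20). Csf1, the macrophage growth factor gene, was at 28.8, 27.1 and 21.9 CPM in the IFNγ libraries and 8.99, 9.98 and 8.55 CPM in the A-485 + IFNγ libraries and fell by 1.5 (standard error 0.18, adjusted p = 0.000555, edgeR). The 6 DNA methyltransferase and TET genes had a median of 0.28, with Dnmt3b called.

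No member was called in 13 further lists, whose medians ran from -0.92 for 5 Wnt pathway genes and -0.71 for 17 receptor tyrosine kinase genes to 0.22 for 18 S-phase and mitosis genes. Between them were the lists of HIF targets (-0.47), CBP-binding cofactors (-0.40), ERK feedback (-0.40), BCL2 family (-0.24), immediate early factors (-0.23), the Myc network (-0.06), acetyltransferases (-0.02), p53 targets (0.02), deacetylases (0.02) and P-TEFb (0.08). Myc was at 11.4, 26.2 and 9.97 CPM in the IFNγ libraries and 3.64, 1.63 and 4.18 CPM in the A-485 + IFNγ libraries (change -2.28, adjusted p = 0.0195, edgeR), and Egr1, an immediate early factor gene, was at 53.8, 70.9 and 48.6 CPM in the IFNγ libraries and 106, 130 and 101 CPM in the A-485 + IFNγ libraries (change 0.96, adjusted p = 0.0161, edgeR). These groups do not overlap for either gene, in opposite directions, and neither passed the threshold. The 22 ribosomal protein genes (median -0.02) and 12 internal standards (median -0.09) had no call.

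**Figure D4:**
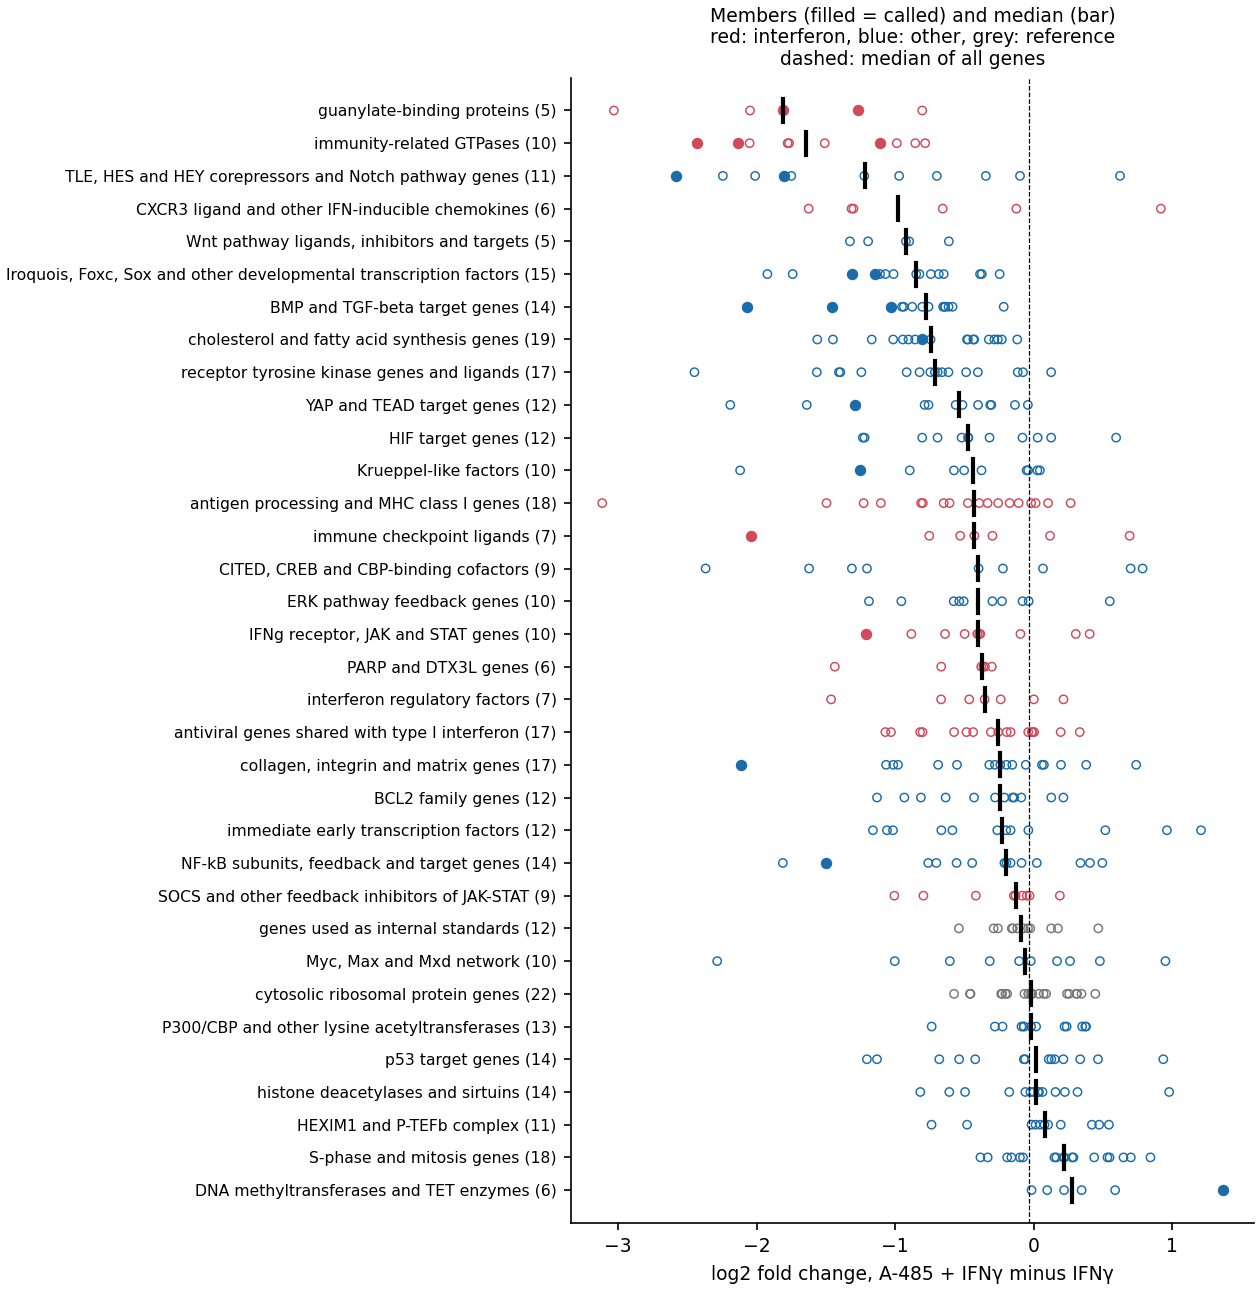
Log2 fold change of A-485 + IFNγ over IFNγ (x axis) for the tested members of 34 gene lists, with the number tested in brackets, filled points for members called at an adjusted p under 0.01, a bar for the median and a dashed line for the median of all genes (-0.03). The guanylate-binding protein and immunity-related GTPase lists are at the top, with medians of -1.81 and -1.64.

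The 64 genes were moderately abundant, with a median level of 34.7 CPM with IFNγ beside 16.1 CPM for all genes, and 63 were protein-coding. The 46 genes not called with IFNγ had a median genomic span of 37.9 kb and the 14 IFNγ-induced ones of 16.4 kb, beside 19.5 kb for all genes. These features are given without a test, since power to call a gene also depends on its counts. Just inside the threshold lay Gja1 (-0.89, adjusted p = 0.00988, edgeR) and Hr (-2.15, adjusted p = 0.00991, edgeR), and just outside it Bcl9l (-1.99) and Inpp1 (-0.85), both at an adjusted p of 0.0102 (edgeR). Exon bases are shared by Notch1 with 0610009E02Rik and Gm13568, by Cebpb with Tmem189, by Igtp with Irgm2 and by Timp3 with Syn3. They are also shared by Id4 with A330033J07Rik, by Thbs1 with Gm29233 and by Eri2 with Acsm3 and Rexo5. Further cases are Ccnd1 with LTO1, Apol6 with Mb, Chdh with Cacna1d, Cdc42ep1 with Lgals2 and Tap1 with Psmb9. Other named genes share bases too, and the counting assigned such reads to each gene. The count of 64 fell to between 17 and 32 when either other IFNγ library or any A-485 + IFNγ library was left out, and was 75 without IFNγ replicate 2, with 45 genes in common. With each of the 6 left out in turn, 15 of the 64 were always called, among them Tle3, Notch1, Timp3, Gbp3, Cebpb, Ehf and Thbs1. Others lost the call whichever library was left out, namely Ablim1, Adgrg1, Eya2, Gbp7, Gja1, Hr, Ifi204, Schip1, Sqle, Tbc1d4, Tead4, Tnrc18 and Trps1.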

How the data were processed

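The authors treated AT3 cells in 6 conditions with 3 libraries each and sequenced QuantSeq 3′ mRNA libraries as single-end 75 b.p. reads. Per the labels and methods, the authors used bcl2fastq 2.17.1.14, FastQC 0.11.5, cutadapt 1.7, HISAT2 2.1.0 (GRCm38) and featureCounts, counting a read for each gene it overlapped, with no strand option. The annotation release is not given in the sources used here. The authors deposited raw counts for 43629 identifiers, of which 42462 (97.3%) matched a symbol in GENCODE vM21.

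Genes were kept by filterByExpr (11964), scaled by TMM, and fitted over all 18 libraries with glmQLFit and glmQLFTest of edgeR 4.0.16 in R 4.3.3, with Benjamini-Hochberg adjustment. Calls were made where the adjusted p lay under 0.01, and the biological coefficient of variation common to all genes was 0.263. CPM, marker sums and count limits use the TMM-scaled total of the genes tested, and fold changes are those of edgeR. Levels of different genes were not corrected for length, since 3′ reads do not scale with it. All replicate pairs compared differed by more than sampling noise (chi-square per degree of freedom 5.1 to 125). The method was tested on simulated data. Figures were drawn with matplotlib 3.10.9 in Python 3.11.15.

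Genes were named by a rule: the 20 largest decreases and increases among called genes whose higher group averaged 50 counts or more and whose groups do not overlap, every called gene that rose, a set of IFNγ and P300/CBP genes, and the 2 members of each list with the smallest p. Other called genes, and their roles, were chosen after their values were seen. Some genes that the rule takes are not reported here. Members and lists were chosen with earlier results of these data known. Alternatives were other tools (DESeq2 1.42.0, limma 3.58.1, sva 3.50.0), scalings, filters, thresholds, a replicate block, fewer groups and each library left out. Promoter sequences are from RefSeq.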

Additional observations from a re-analysis of the deposited data

Results flagged for a closer look

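The difference between the effects of A-485 with and without IFNγ stood out for Gbp3 at an adjusted p under 0.05 (edgeR), a looser limit than the 0.01 used for calls. The log2 fold change of Gbp3 with A-485 was lower under IFNγ than at steady state by a difference of -2.19 (adjusted p = 0.0257, edgeR). Gbp3 is an IFNγ-induced gene, and its 3 A-485 + IFNγ libraries all lay below its 3 IFNγ libraries. The looser limit was met by 0 genes with the replicate block and with only the groups compared (edgeR). It was also met by 0 genes when any A-485 + IFNγ library, or replicate 1 or 2 of DMSO or A-485, was left out. With limma-voom 2 genes met it and with DESeq2 17, so the result depends on the model and libraries.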

How the results depend on the processing

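The counts depended strongly on the model. No called gene changed sign under any alternative, but the groups of every called gene do not overlap. A change of sign was therefore hardly possible in them, and this says little about direction across all genes. The counts below are of genes lower, higher, with an interaction, lower also at steady state, and lower but not called with IFNγ, beside 64, 2, 0, 29 and 46. DESeq2 gave 211, 22, 10, 99 and 153, voom with sample quality weights 402, 118, 9, 143 and 310, and 2 surrogate variables 318, 30, 23, 228 and 210. Without both libraries rich in Gm42418 they were 287, 38, 3, 129 and 213, and at an adjusted p under 0.05 they were 187, 21, 2, 93 and 143. Total counts in place of TMM gave 33 lower, 1 interaction, 18 and 22. That scaling moved the median of all genes by 0.11, and 42.8% of genes then lay below 0. At an unadjusted p under 0.05 it gave 786 lower and 1002 higher genes. No low-count filter, and a fold limit of 1 on the log2 scale, each left 1 gene higher. A fit of only the groups compared called 0 genes in each of these counts (800 lower and 348 higher at an unadjusted p under 0.05, edgeR). Without DMSO replicate 3 there were 103 lower genes, 81 of them not called with IFNγ. With 1 of the 6 libraries compared left out the ranges were 17 to 75 lower and 0 to 3 higher. With 1 DMSO, A-485, IFNγ or A-485 + IFNγ library left out there were 0 to 0 interactions. The same fits gave 11 to 37 genes lower at steady state too and 12 to 81 lower but not called with IFNγ. The lowest counts were those without A-485 + IFNγ replicate 1.

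Deviations of same-numbered libraries from their group means correlated at 0.224, -0.193 and -0.275 between both groups. With 3 libraries a group and IFNγ replicate 2 apart, such values cannot decide whether the numbers pair libraries. With the replicate block there were 29 lower and 0 higher genes, 0 interactions, 16 also lower at steady state and 22 not called with IFNγ, and the 29 were all among the 64. All 64 were called by DESeq2, 62 by limma-voom and 57 with surrogate variables. Of the values for single genes, 8 changed sign, all in genes that were not called. Actb was at 0.051 with voom quality weights, 0.138 without both Gm42418-rich libraries and 0.135 without IFNγ replicate 2, within a range of -0.811 to 0.135 with 1 library left out. Hexim1 was at -0.0464, -0.0291 and -0.0334 in the same settings, within a range of -0.0334 to 0.193, and with surrogate variables Rpl4 was at 0.221 and Rpl7 at -0.0534. The causes were not tested. With 3 libraries a group and 3 counts at 0.369 to 0.894 CPM, small changes of rare transcripts were not detectable at this depth.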
